A study of Mus musculus with 4 samples.

Results

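The genes described here are 45 enzymes, transporters and regulators of glycolysis, the pentose phosphate pathway and glycogen metabolism, with the hypoxia factors that act on them. They were chosen by name, with earlier results of these data known. All 45 had a row among the 16755 genes of the table, and all 45 passed the filter on low values. Bulk RNA-seq was run on alveolar macrophages, which patrol the lung's air spaces, after flow cytometric sorting; the titles say bulk, but a protocol field speaks of single-cell sequencing, and the values were treated as bulk. There were 2 libraries of osteopontin knock-out mice (OPNKO, Spp1-/-, C57BL6) and 2 of wild-type mice (WT, C57BL6). All 4 carry a bleomycin tag, a drug that injures the lung, and day 14 stands in their column names, although a further field states that nothing was given. The sources used here do not state age, sex, how many animals made up a library or how the Spp1 allele was built. Mice without bleomycin were not analysed here.

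Glycolysis splits glucose into pyruvate and yields ATP, and its first steps also feed the pentose phosphate pathway, which makes NADPH and ribose phosphate, and glycogen, the stored form of glucose. Macrophages use more glycolysis when they are activated or short of oxygen, and the transcription factor HIF-1 then raises many of these genes, among them Slc2a1, Ldha, Pdk1 and Bnip3. Alveolar macrophages live in air spaces with much oxygen and little glucose, and are known to rely largely on oxidative metabolism and lipids.

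The libraries held 35793800 to 44759630 reads in genes. In 2 of the 4 samples the genotype tag contradicts the title, and groups follow the titles. Spp1 did so too, with 4106 and 3847 normalized reads in OPNKO, against 545719 and 606517 in WT (log2 fold change -7.18, SE 0.09, limma adjusted p = 9.12e-08). All 10 alveolar macrophage markers with a row had reads in every library. Of them Krt79 (1.38) and Pparg (0.41) rose and Car4 (-0.68) and Ear2 (-0.39) fell by limma at an adjusted p under 0.05. The integrin Itgax, which did not pass, had 94273 and 91167 normalized reads in OPNKO and 83043 and 76150 in WT. Separate animals are not named for the replicates, and p-values therefore cover only the spread among these libraries, perhaps a technical one. With 2 libraries a group, the smallest two-sided p of an exact permutation test is 0.333. Genes were therefore tested with limma, which pools information on the spread across genes, on log2(normalized read count + 1), with p adjusted over all 16431 genes tested.

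Of the 45 genes, 3 fell and 1 rose in OPNKO at an adjusted p under 0.05. Stbd1, which tethers glycogen to membranes, Ldhb, the heart-type subunit of lactate dehydrogenase, and Slc2a1, the main glucose transporter of most cells, fell, and Pfkfb3, which makes the activator of phosphofructokinase, rose. That is 6.67% of the 45 lower and 2.22% higher, against 1.98% lower and 2.33% higher among all genes tested. Most of the other differences were small and pointed down: 32 of the 45 log2 fold changes were negative, their median was -0.13 against 0.00 for all genes tested, and 38 of the 45 means differed by under 20% between the genotypes. Both OPNKO libraries were below both WT libraries for 27 of the 45 (60.0%, against 25.0% of all genes tested) and above both for 7 (15.6%, against 27.7%). At an unadjusted p under 0.05, 18 were lower (40.0%, against 9.54% of all genes tested) and 2 higher (4.44%, against 11.6%). All genes tested were not matched to the 45 for level, and 31 of the 45 had at least 1000 reads in every library. The median stayed between -0.16 and -0.12 with each library left out in turn.

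**Figure D1:**
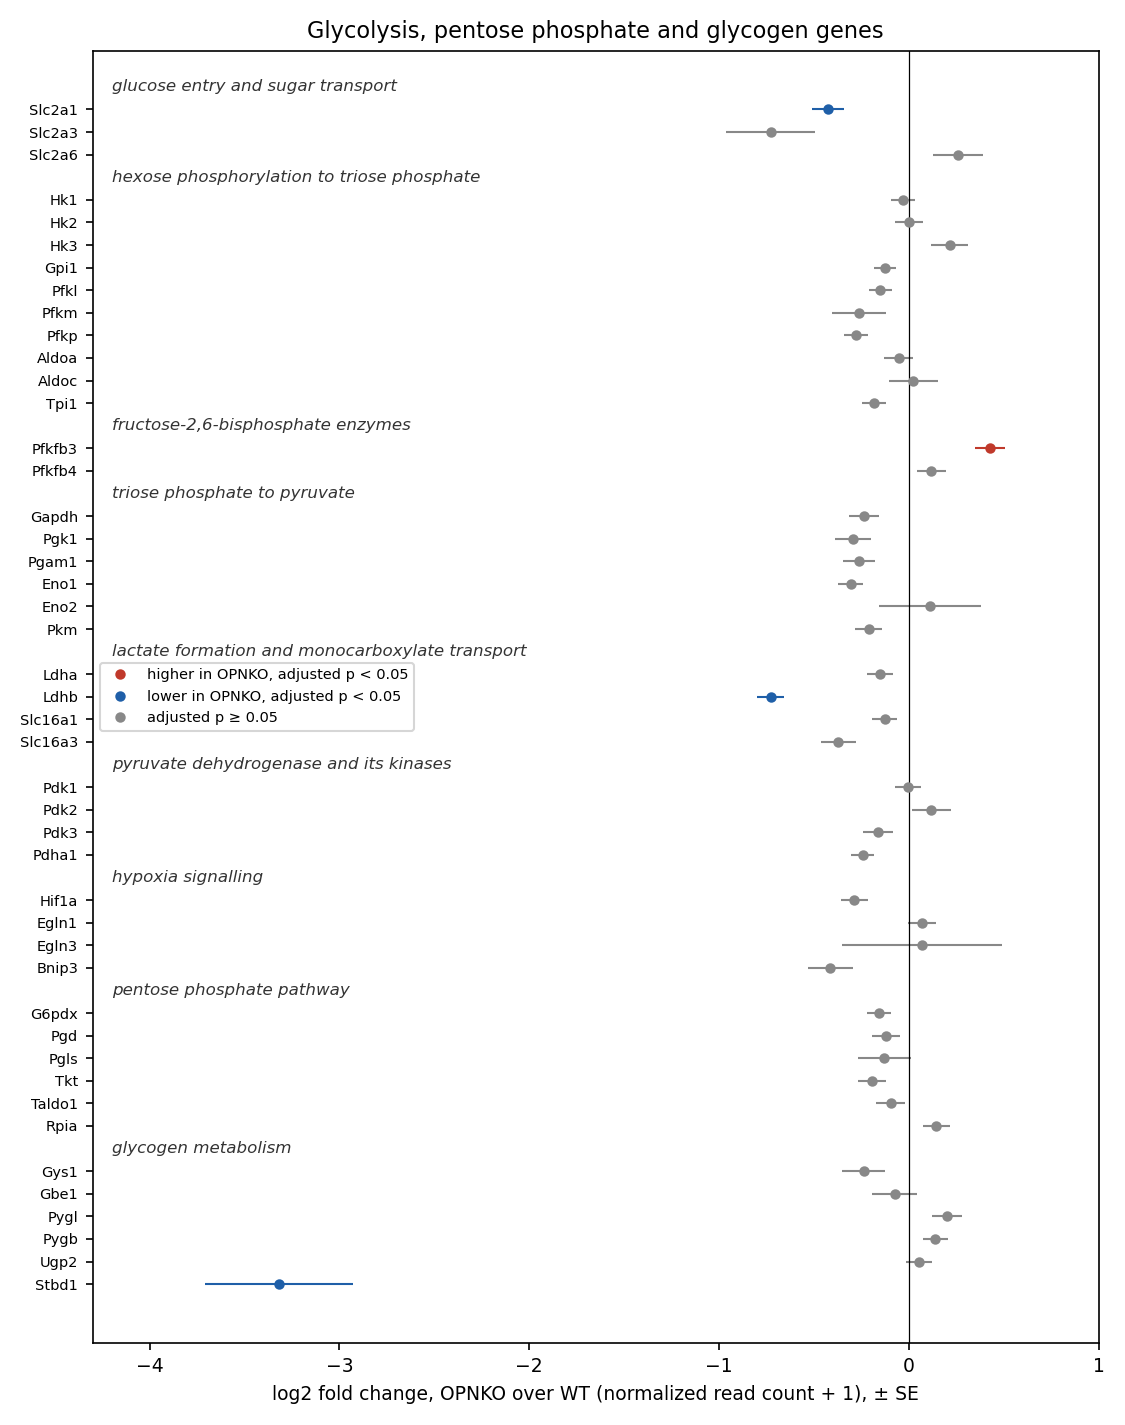
Log2 fold change of OPNKO over WT on the horizontal axis for each of the 45 genes, grouped by role, with bars of 1 SE. Stbd1, at -3.32, lies far to the left of the other 44, which lie between -0.73 and 0.43.

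Leaving out 1 library leaves its genotype with 1 sample, whose spread is then taken from the other genotype alone. Without WT replicate 1 or WT replicate 2, 0 of the 45 passed by limma, as the whole table then gave 4 and 11 genes. The log2 fold changes of the 4 genes then stood at -3.44 and -3.19 for Stbd1, -0.70 and -0.76 for Ldhb, -0.42 and -0.43 for Slc2a1 and 0.43 and 0.42 for Pfkfb3, each under an unadjusted p of 0.05. Without OPNKO replicate 1 the 3 falls passed and Pfkfb3 did not (adjusted p = 0.0762), and without OPNKO replicate 2 Slc2a1 did not (adjusted p = 0.0946). The authors' deposited table lists 6 of the 45 as lower and 1 as higher at an adjusted p under 0.05 (1.61% and 2.73% of all its genes), namely those 4 with Eno1, Pfkp and Hif1a. On recovered reads, edgeR called 4 lower and 1 higher (2.37% and 2.59% of its genes) and DESeq2 10 lower and 1 higher (3.93% and 4.73% of its genes).

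**Figure D2:**
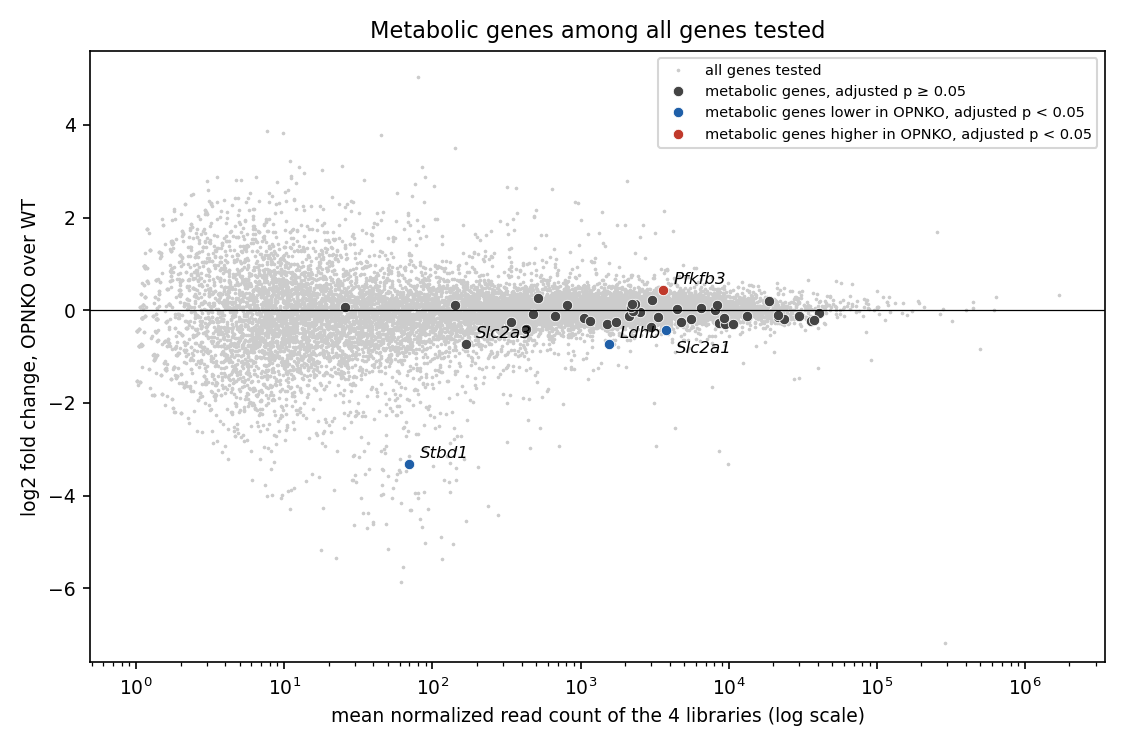
Mean normalized read count of the 4 libraries (horizontal, log scale) against the log2 fold change of OPNKO over WT (vertical) for all 16431 genes tested in grey and the 45 metabolic genes in larger points. Stbd1 is at -3.32, while Ldhb at -0.73, Slc2a1 at -0.43 and Pfkfb3 at 0.43 sit at the edge of the cloud at their level.

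The promoters of the 4 genes that passed are shown because HIF-1, the factor best known for acting on this pathway, binds the core letters ACGTG or GCGTG. The stretches end just before the annotated starts of transcription and come from RefSeq on GRCm38.p6: chr5:92602801-92603040 (plus strand) for Stbd1, chr6:142507958-142508207 (minus strand) for Ldhb, chr4:119108495-119108710 (plus strand) for Slc2a1 and chr2:11554078-11554179 (minus strand) for Pfkfb3. Capitals mark either core on either strand, so that CACGC is GCGTG read on the other strand.
Stbd1: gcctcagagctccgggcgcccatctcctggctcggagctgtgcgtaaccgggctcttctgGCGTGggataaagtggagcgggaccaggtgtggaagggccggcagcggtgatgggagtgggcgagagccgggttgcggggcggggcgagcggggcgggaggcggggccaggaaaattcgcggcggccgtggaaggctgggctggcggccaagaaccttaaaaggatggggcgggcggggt
Ldhb: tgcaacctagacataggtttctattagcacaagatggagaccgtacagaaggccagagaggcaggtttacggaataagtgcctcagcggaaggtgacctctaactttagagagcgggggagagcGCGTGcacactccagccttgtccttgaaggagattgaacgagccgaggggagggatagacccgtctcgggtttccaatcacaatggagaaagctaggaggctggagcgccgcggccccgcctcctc
Slc2a1: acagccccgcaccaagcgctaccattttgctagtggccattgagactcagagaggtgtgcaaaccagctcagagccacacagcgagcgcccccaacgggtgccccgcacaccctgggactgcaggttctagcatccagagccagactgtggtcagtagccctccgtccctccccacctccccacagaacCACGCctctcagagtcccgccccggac
Pfkfb3: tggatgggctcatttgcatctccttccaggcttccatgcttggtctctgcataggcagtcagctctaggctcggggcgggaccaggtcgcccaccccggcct
Stbd1, Ldhb and Slc2a1 each held 1 core in these letters and Pfkfb3 held 0 in its shorter stretch. In the whole table of windows, 250 bases before to 50 after a start, 47 of 60 windows of the 44 genes with an entry held ACGTG or GCGTG (78.3%), against 43.8% of 32851 windows of all genes. The E-box CACGTG, which contains ACGTG, was in 11.7% of their windows and in 7.15% of all. GGGCGG, the GC box of many housekeeping promoters, was in 63.3% of their windows and in 35.7% of all, so that the windows of these genes were also richer in a motif of G and C alone. A match of letters is a description and not a site of binding. Each printed stretch stands for 1 start of its gene, and the part of HIF-1 in these changes was not tested.

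Glucose enters macrophages through transporters of the Slc2a family. Slc2a1 (ENSMUSG00000028645) had 3459 and 2967 normalized reads in OPNKO, against 4317 and 4296 in WT. Both OPNKO libraries were below both WT libraries, and the mean was 3213 ± 347 in OPNKO and 4306 ± 14.5 in WT (SD, n = 2 each), a log2 fold change of -0.43 with SE 0.08 (limma adjusted p = 0.0377). In bulk samples, fewer cells of a type and less RNA per cell cannot be told apart. Its exons share 105 bases with a predicted gene on the other strand, and the sources used here do not say if counting used strand. Slc2a3, a transporter of high affinity, was far lower, with 114 and 137 normalized reads in OPNKO and 172 and 251 in WT (log2 fold change -0.73, SE 0.23, limma adjusted p = 0.133). Slc2a6, a transporter of lysosomal membranes in macrophages, lay the other way without overlap, at 608 and 522 in OPNKO and 512 and 433 in WT (log2 fold change 0.26, SE 0.13, limma adjusted p = 0.321). Per kilobase of exon, Slc2a1 made up 82.8% and 82.4% of the 3 transporters in OPNKO and 87.0% and 87.8% in WT.

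The first enzymes, from hexokinase to triose phosphate isomerase, gave 0 calls by limma among 10 genes. Lower at an unadjusted p under 0.05 were 3, against 9.54% of all genes tested. Pfkp alone passed by edgeR and by DESeq2, which called 2.37% and 3.93% of their genes lower. Of the 10, 8 were negative, with a median log2 fold change of -0.09. Hexokinase traps glucose in the cell, and none of its 3 forms passed. Hk2, the inducible form, had 8492 and 7735 normalized reads in OPNKO and 7820 and 8414 in WT, and Hk1, the form of most tissues, 2495 and 2513 in OPNKO and 2599.8 and 2519.9 in WT. Hk3, the form of myeloid cells, had 3590.1 and 2931 in OPNKO and 2748 and 2846 in WT (log2 fold change 0.21, SE 0.10, limma adjusted p = 0.274), both OPNKO libraries lying above both WT libraries. Hk2 was the main form per kilobase of exon in every library, at 52.9% and 54.3% of the 3 in OPNKO and 55.5% and 56.9% in WT, followed by Hk3 and Hk1.

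Phosphofructokinase commits sugar to glycolysis. Pfkp, its platelet form, had 7831 and 7640.2 normalized reads in OPNKO, against 9698 and 9059 in WT. The groups did not overlap, and the log2 fold change was -0.28 with SE 0.06, just short of the threshold (limma adjusted p = 0.0623) and past it by edgeR on recovered reads (adjusted p = 0.0490). Pfkl, the liver form, had 3203 and 3143 in OPNKO and 3476 and 3571 in WT (-0.15, SE 0.06, limma adjusted p = 0.219), and Pfkm, the muscle form, 284 and 337 in OPNKO and 359 and 385 in WT (-0.26, limma adjusted p = 0.333). All 3 forms had both OPNKO libraries below both WT libraries, as had 25.0% of all genes tested, and none of the 3 passed by limma. Pfkp shares 748 exon bases with Pitrm1 on the other strand. Among the rest of these steps, Tpi1, which interconverts the trioses, had 5063 and 5291 in OPNKO and 5771 and 5985 in WT (log2 fold change -0.18, SE 0.06, limma adjusted p = 0.154). Gpi1, the isomerase of glucose phosphate, was at -0.13, also without overlap. Aldolase splits the sugar in the middle of the path. Aldoa, its main form, had 38654 and 41796 normalized reads in OPNKO and 42314 and 41144 in WT, and the groups overlapped, as they did for Aldoc (0.02).

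**Figure D3:**
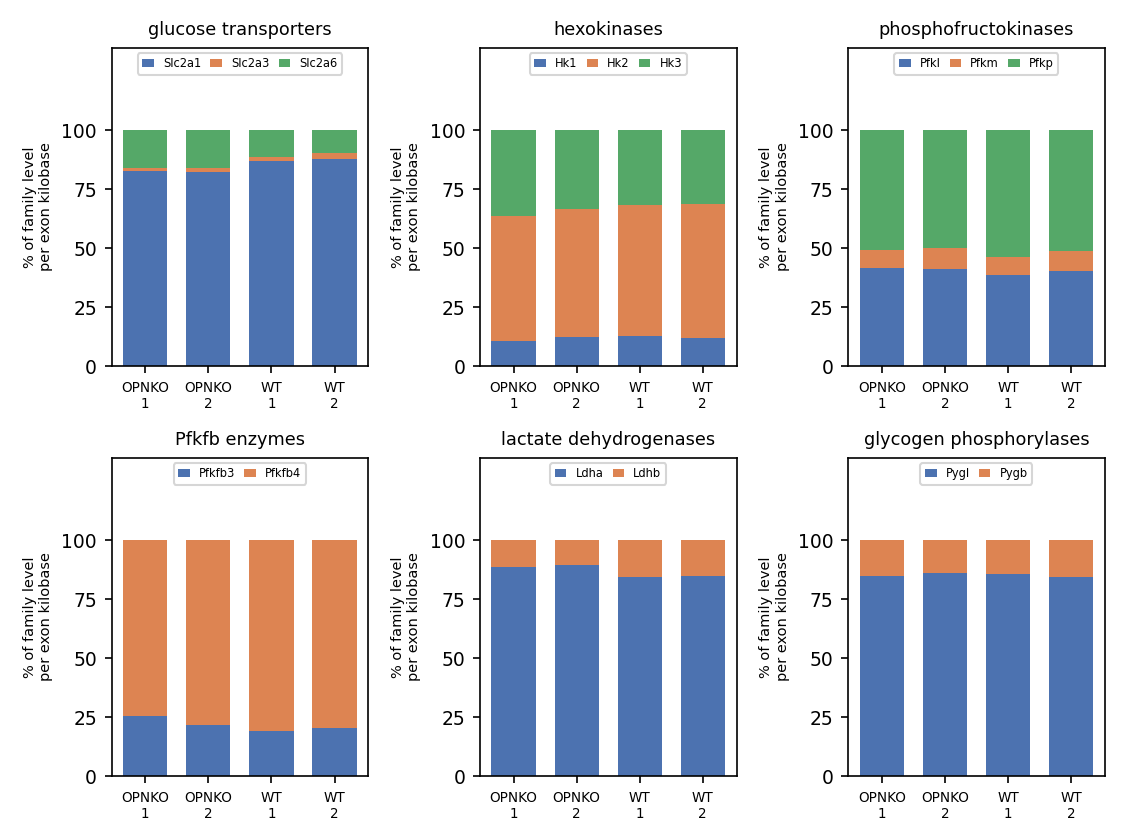
Share of each gene in the summed level of its family per kilobase of exon (vertical, percent) in each of the 4 libraries, for 6 families. Ldhb takes 11.3% and 10.5% of the lactate dehydrogenase level in OPNKO and 15.5% and 15.3% in WT, and the other families keep the order of their forms in every library.

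The bifunctional Pfkfb enzymes set the level of fructose-2,6-bisphosphate, the strongest activator of phosphofructokinase. Pfkfb3 (ENSMUSG00000026773), the form with the highest kinase activity, had 4403 and 3875 normalized reads in OPNKO, against 3077 and 3064 in WT. The groups lay apart, with means of 4139 ± 373 in OPNKO and 3071 ± 8.85 in WT (SD, n = 2 each), 34.8% higher in OPNKO (log2 fold change 0.43, SE 0.08, limma adjusted p = 0.0290). Pfkfb4, the more abundant of the pair per kilobase of exon, had 8342 and 9155 in OPNKO and 8478 and 7641 in WT, with overlap (0.12, limma adjusted p = 0.434). Pfkfb3 made up 25.4% and 21.4% of the pair in OPNKO and 18.96% and 20.6% in WT.

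The later steps of glycolysis, from glyceraldehyde phosphate to pyruvate, pointed down in 5 of 6 genes, each with both OPNKO libraries below both WT libraries (25.0% of all genes tested). Of the 6, 0 passed by limma, 0 by edgeR and 3 by DESeq2 (Gapdh, Eno1 and Pkm, all lower, as were 3.93% of the genes it tested). The 5 were under an unadjusted p of 0.05, as were 9.54% of all genes tested in that direction. Eno1, the common enolase, came nearest, with 8212 and 8797 normalized reads in OPNKO and 10251 and 10775 in WT (log2 fold change -0.31, SE 0.07, limma adjusted p = 0.0516). Gapdh, often used as a reference gene, had 31632 and 34223 in OPNKO and 37368 and 40204 in WT (-0.24, SE 0.08, limma adjusted p = 0.153). Pkm, pyruvate kinase, had 35087 and 34896 in OPNKO and 41225 and 39814 in WT (-0.21, SE 0.07, limma adjusted p = 0.149).
The means of the 5 negative genes differed by -19.1% to -13.6% in OPNKO relative to WT. Pgk1, the first step to make ATP, had 1460.0 and 1239.8 in OPNKO and 1668 and 1633 in WT (-0.29, SE 0.09, limma adjusted p = 0.133), and Pgam1, phosphoglycerate mutase, 1675 and 1491 in OPNKO and 1967 and 1826 in WT (-0.26, SE 0.09, limma adjusted p = 0.141). Eno2, the neuronal enolase, was low, at 187 and 112 in OPNKO and 139 and 129 in WT. The annotation names copies after Aldoa, Gapdh, Pgk1, Pgam1 and Ldha, so reads of these 5 could be split among near-identical sequences.

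Lactate dehydrogenase turns pyruvate into lactate and back, and the subunits Ldha and Ldhb form its tetramers. Ldhb (ENSMUSG00000030246) had 1179 and 1166 normalized reads in OPNKO, against 1988 and 1899 in WT. The libraries of each genotype lay close together and the groups far apart: the mean was 1173 ± 9.11 in OPNKO and 1943 ± 62.6 in WT (SD, n = 2 each), a difference of -39.7% relative to WT and a log2 fold change of -0.73 with SE 0.07 (limma adjusted p = 0.00445). It rested on 937 to 1946 reads per library. Ldha, the muscle-type subunit, which favours lactate formation, had 19592 and 20917 in OPNKO and 22792 and 22236 in WT (-0.15, SE 0.07, limma adjusted p = 0.256). Per kilobase of exon Ldha was the main subunit in all 4 libraries, and Ldhb made up 11.3% and 10.5% of the pair in OPNKO and 15.5% and 15.3% in WT. Whether the change of Ldhb differed from that of Ldha was not tested. Lactate leaves cells through monocarboxylate transporters. Slc16a3, the exporter of glycolytic cells, had 2702 and 2497 in OPNKO and 3628 and 3111 in WT (-0.37, SE 0.09, limma adjusted p = 0.0703), and Slc16a1, which carries lactate both ways, 2006 and 2026 in OPNKO and 2261 and 2148 in WT (-0.13, limma adjusted p = 0.330). All 4 genes of this step had both OPNKO libraries below both WT libraries, as had 25.0% of all genes tested.

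Pyruvate dehydrogenase oxidizes pyruvate inside the mitochondria, and the Pdk kinases switch it off. Pdha1, its catalytic alpha subunit, had 4357 and 4405 normalized reads in OPNKO and 5264 and 5112 in WT, without overlap (log2 fold change -0.24, SE 0.06, limma adjusted p = 0.0714); it shares 603 exon bases with Map3k15 on the other strand. Pdk1, the kinase that HIF-1 induces, had 2201 and 2343 in OPNKO and 2265 and 2293 in WT. Pdk2 (0.12) overlapped between the genotypes as well, and Pdk3 (-0.16, limma adjusted p = 0.297) did not.

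**Figure D4:**
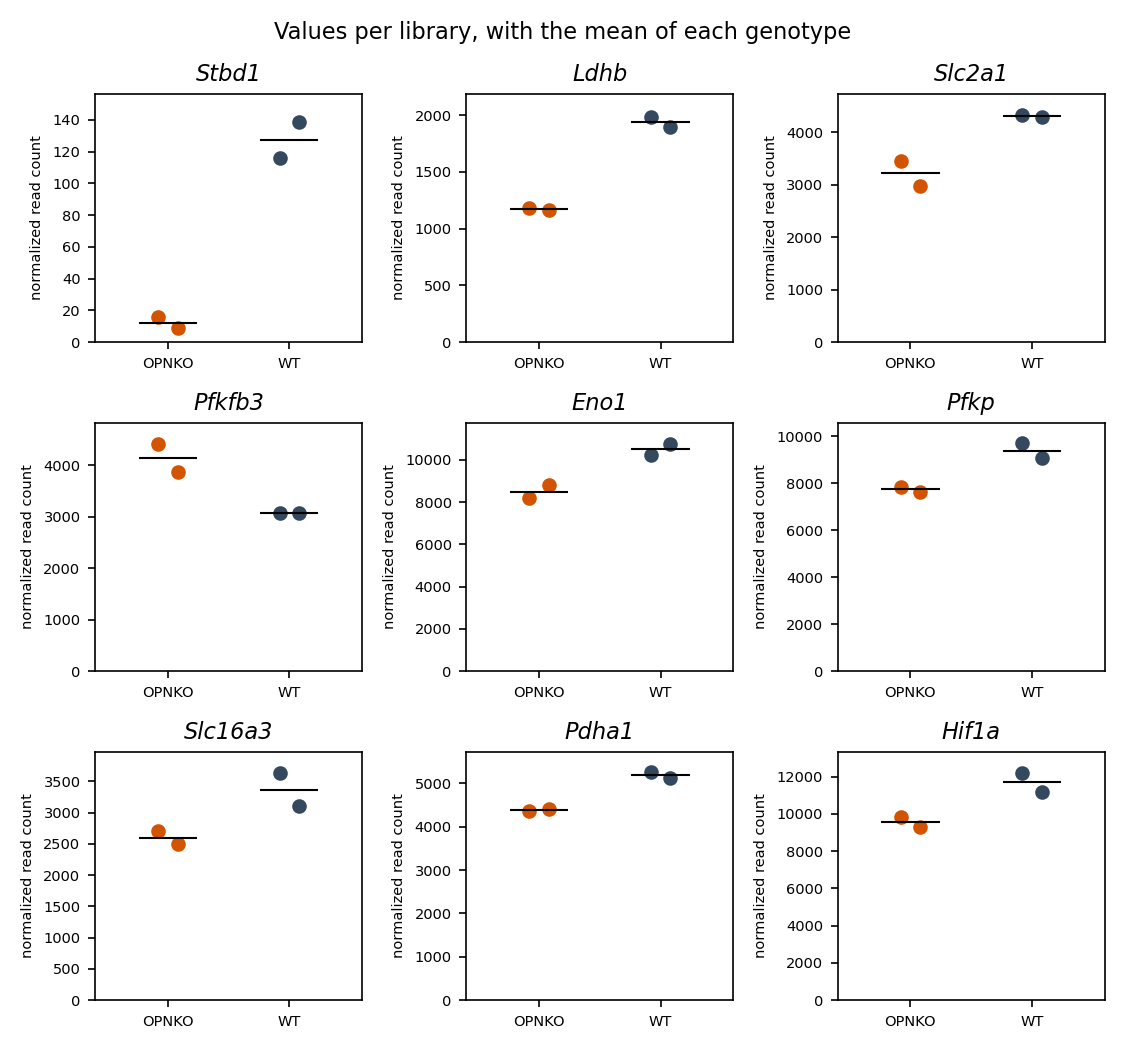
Normalized read count of each library (points, vertical axis from 0) and the mean of each genotype (line) for the 4 genes that passed and the 5 with an adjusted p between 0.05 and 0.1. In each panel both OPNKO libraries lie on 1 side of both WT libraries, above them for Pfkfb3 and below them for the other 8.

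Hif1a encodes the oxygen-regulated subunit of HIF-1. It had 9847 and 9298 normalized reads in OPNKO, against 12210.2 and 11158 in WT, without overlap (log2 fold change -0.29, SE 0.07, limma adjusted p = 0.0745). It passed by DESeq2 on recovered reads (adjusted p = 0.00833) and not by edgeR (adjusted p = 0.0600). Bnip3, a mitophagy receptor, had 364 and 370 in OPNKO and 518 and 462 in WT (-0.41, SE 0.12, limma adjusted p = 0.104). Some of the other genes known to be induced by HIF-1 are named here, not all of them. Pfkfb3 rose and Slc2a1 fell by limma. Hk2, Pdk1, Egln3, Pfkfb4 (0.12), Aldoa (-0.05), Aldoc (0.02) and Gbe1 (-0.07) did not pass, and their groups overlapped. Ldha (-0.15), Tpi1 (-0.18), Pkm (-0.21), Gapdh (-0.24), Pgk1 (-0.29), Eno1 (-0.31), Slc16a3 (-0.37) and Slc2a3 (-0.73) did not pass by limma either. These were lower in OPNKO without overlap, as were 25.0% of all genes tested. Egln1, the prolyl hydroxylase that marks HIF for decay, had 2231 and 2237 in OPNKO and 2224 and 2035 in WT (0.07). Egln3, an inducible hydroxylase, was near the floor, with 19 and 25 reads in OPNKO and 19 and 30 in WT, so that a difference would not have been detectable at this depth unless large (log2 fold change 0.07, SE 0.42).

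The pentose phosphate pathway gave 0 calls among 6 genes by limma, edgeR or DESeq2. Of the 6, 5 were negative, and 2 were lower at an unadjusted p under 0.05, as were 9.54% of all genes tested. G6pdx, glucose-6-phosphate dehydrogenase, which sets the flow into the path, had 8606 and 9053 normalized reads in OPNKO and 9659.8 and 10067 in WT (log2 fold change -0.16, SE 0.06, limma adjusted p = 0.208). Tkt, transketolase, had 21168 and 22998 in OPNKO and 25804 and 24671 in WT (-0.19, SE 0.07, limma adjusted p = 0.191). Both sat below WT in both libraries, as did Pgd, the second source of NADPH, at 28387 and 28419 in OPNKO and 32378 and 29497 in WT (-0.12). Of all genes tested, 25.0% did so. Taldo1, transaldolase, was below WT in both libraries as well, at 19608 and 21861 in OPNKO and 22210.0 and 22073 in WT (-0.10, limma adjusted p = 0.510), whereas Pgls, the lactonase, overlapped (-0.13). Rpia, which makes ribose phosphate, was the positive one (0.15, limma adjusted p = 0.301), with 2331 and 2541 in OPNKO and 2213 and 2188 in WT. Per kilobase of exon, Taldo1 was second only to Aldoa among the 45 in the mean of each genotype. That order depends on lengths that count every annotated exon base, 4133 for Gapdh and 2171 for Taldo1. Gapdh and Pkm had more normalized reads than Taldo1.

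Of the 6 glycogen genes, Stbd1 passed, and 3 log2 fold changes were positive and 3 negative. Pygl, the phosphorylase that breaks glycogen down, had 18937 and 20884 normalized reads in OPNKO and 18017 and 16620.2 in WT (log2 fold change 0.20, SE 0.08, limma adjusted p = 0.204). Pygb, its brain form, had 2326 and 2350.1 in OPNKO and 2082 and 2163 in WT (0.14, SE 0.07, limma adjusted p = 0.280). Both phosphorylases lay above WT in both libraries, as did 27.7% of all genes tested, while 25.0% lay below WT. Gys1, the synthase, lay below it, at 953 and 1184 in OPNKO and 1212 and 1296 in WT (-0.24, SE 0.11, limma adjusted p = 0.288), and Ugp2 (0.06), which makes its substrate, and Gbe1 (-0.07), the branching enzyme, overlapped. The opposite signs of Pygl and Gys1 were not tested against each other.

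Stbd1 (ENSMUSG00000047963), whose protein binds glycogen and is linked to its delivery to lysosomes, had by far the greatest fall of the 45. It had 16.0 and 8.71 normalized reads in OPNKO, against 116 and 139 in WT. These are 14 and 7 reads in OPNKO and 106 and 142 in WT, and the mean was 10.3-fold lower in OPNKO (log2 fold change -3.32, SE 0.39, limma adjusted p = 0.00686; edgeR adjusted p = 0.00928 on recovered reads). The gene was low in both genotypes, and with so few reads in OPNKO the size of its fall is uncertain: without OPNKO replicate 2 it was -2.91 and without OPNKO replicate 1 it was -3.72. Stbd1 was the only one of the 45 on chromosome 5, where Spp1 lies, and starts 11.8 Mb from it (chr5:92603041-92606579, plus strand, in GRCm38 with GENCODE M21). Within 2.5 Mb on either side of Stbd1, 7 of 41 other genes tested passed (17.1%, against 4.32% of all genes tested); past Stbd1 the tested genes ended at 664 kb. Rassf6 (5.03), Cdkl2 (1.02), Cox18 (0.74) and Ccng2 (0.57) rose and Areg (-2.83), Cxcl9 (-1.69) and Ereg (-1.21) fell. Ccdc158, whose start is 1375 bases past the end of Stbd1, had 1.14 and 4.98 normalized reads in OPNKO and 15.4 and 9.76 in WT (-1.89, limma adjusted p = 0.207). Scarb2, a lysosomal membrane protein gene on its other side, had 10689 and 10549 in OPNKO and 12728 and 12003 in WT (-0.22, limma adjusted p = 0.105). The part of this position in the fall of Stbd1 was not tested.

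**Figure D5:**
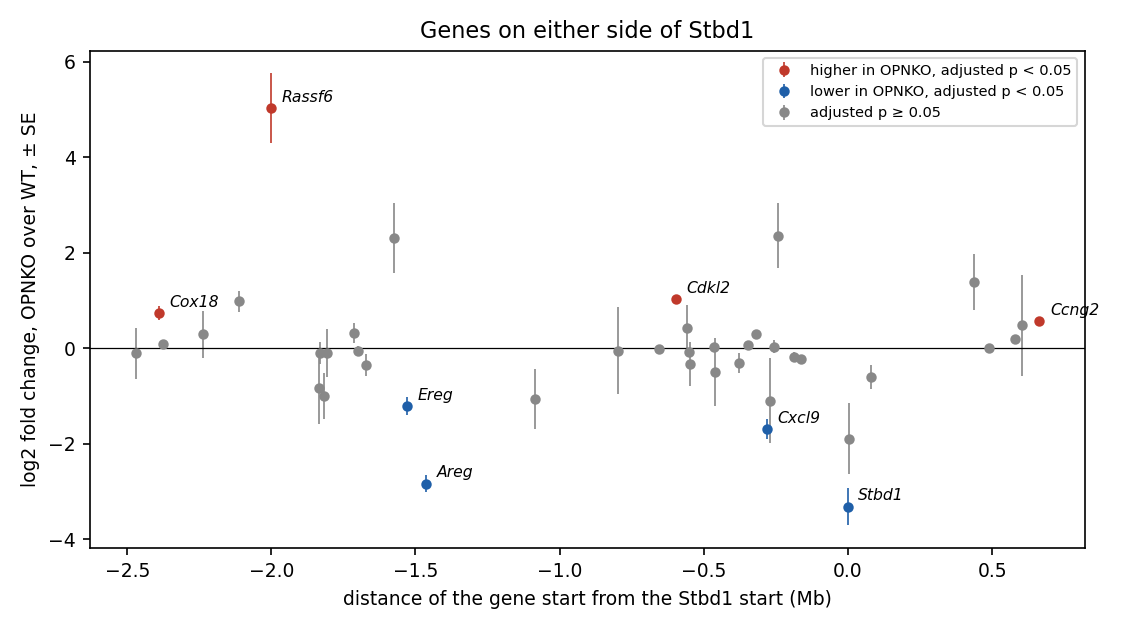
Distance of each gene's start from the start of Stbd1 in Mb (horizontal) against its log2 fold change of OPNKO over WT with bars of 1 SE (vertical), for the genes tested within 2.5 Mb. The genes that passed point both ways, from Rassf6 at 5.03 to Stbd1 at -3.32.

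Other genes of the same pathways were listed by function. Of 107 tested, 2 rose and 3 fell (2.33% and 1.98% of all genes tested), and their median was -0.05. Gpd1, the cytosolic glycerol phosphate dehydrogenase that takes triose out of glycolysis, had 155 and 156 normalized reads in OPNKO and 308 and 330 in WT (log2 fold change -1.03, limma adjusted p = 0.0147). It was the 1 call among 22 other genes of glycolysis and sugar transport, whose median was 0.01. Of 26 genes of pyruvate oxidation and the citric acid cycle, Idh3a, a subunit of isocitrate dehydrogenase, fell (-0.38, limma adjusted p = 0.0242) and Pdk4, the kinase induced when fat is burnt, rose, with 276 and 326 in OPNKO and 169 and 113 in WT (1.11, limma adjusted p = 0.0417). The median of these 26 was -0.10, with 20 negative. Of 22 other hypoxia genes, Ddit4, an mTOR inhibitor induced by hypoxia and glucocorticoids, fell (-0.90, limma adjusted p = 0.0195). It had 199.8 and 180.5 in OPNKO and 362 and 347 in WT. The median of these 22 was -0.18, with 15 negative. Of 9 genes of the hexosamine pathway Mgea5, which removes O-GlcNAc from proteins, rose (0.37, limma adjusted p = 0.0257).
By limma 0 passed among 17 other glycogen genes (median 0.07), 6 of the pentose phosphate pathway (-0.12) and 5 of gluconeogenesis (-0.26). At an unadjusted p under 0.05, 11.6% of all genes tested were higher and 9.54% lower. The glycogen genes had 4 higher and 1 lower, and the other lists 1 lower each. Nearest among them were Gaa, the lysosomal enzyme that degrades glycogen, with 6923 and 7010.4 normalized reads in OPNKO and 5658 and 5951 in WT (0.26, limma adjusted p = 0.0623), Prps1, which makes phosphoribosyl pyrophosphate (-0.32, limma adjusted p = 0.0956), and Pck2, the mitochondrial enzyme of gluconeogenesis (-0.26, limma adjusted p = 0.206).

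Markers of other cells moved with genotype beside these genes. Summed over 10 T and NK cell markers, normalized reads were 5049 and 8156 in OPNKO and 2138 and 2687 in WT. Of the 10, 4 were higher at an adjusted p under 0.05 by limma (Cd8a, Lck, Trbc2 and Cd4). Of all genes tested, 2.33% were higher and 1.98% lower at that threshold. The NK cell markers did not pass: Klrb1c was lower without overlap (-0.77, limma adjusted p = 0.283) and Ncr1 overlapped (1.11, limma adjusted p = 0.330). Over 8 B and plasma cell markers the sums were 4766 and 4678 in OPNKO and 28163 and 36709.8 in WT, with 4 lower. Over 8 markers of monocytes they were 51832 and 42253 in OPNKO and 62352 and 61129 in WT, with Ccr2 lower. Over 7 fibroblast markers they were 790 and 478 in OPNKO and 953 and 5418 in WT. Over 8 neutrophil markers, 7 of them tested, they were 3741 and 3908 in OPNKO and 3058 and 4360 in WT, with Retnlg lower and Cxcr2 higher. The 10 alveolar macrophage markers summed to 559695 and 673991 in OPNKO and 892356 and 895784 in WT. Most of that sum was Chi3l3, a chitinase-like protein gene, with 311109 and 411474 in OPNKO and 634850.3 and 643790.2 in WT (-0.84, limma adjusted p = 0.0528). The other 9 summed to 248586 and 262517 in OPNKO and 257505 and 251994 in WT. Of the other lists, 8 dendritic cell markers had 1 lower, 6 endothelial markers 1 higher (Vwf, with the other 5 negative), and 4 erythroid and 8 epithelial markers 0 called by limma, also with 0 at an unadjusted p under 0.05. WT replicate 2 stood above WT replicate 1 in these stromal and blood lists, with a median log2 difference of 2.35 for fibroblasts, 1.92 for endothelium, 2.08 for erythroid cells and 1.61 for epithelium. No listed marker with a row was at 0 in all 4 libraries. The part of any of these cells in the metabolic genes was not tested.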

How the data were processed

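The samples were bulk RNA-seq libraries of sorted mouse alveolar macrophages, 2 OPNKO and 2 WT, out of 10 stranded libraries sequenced together per the labels. The submitters' processing notes list, without role or order, edgeR, HTSeq 0.6.1p1, STAR 2.4.1d and Trim Galore 0.4.0. Build, annotation and strand setting: not given in the sources used here. Per the file headers, the authors deposited a normalized value per library (a signal: reads over a size factor). Beside it they deposited a log2 fold change with SE, a p-value as such and adjusted, and a Wald score. Whole reads were recovered for 100% of values (tolerance 0.001 reads). There were 2 columns that match no sample; they were left out. Of the rows, 1 has no symbol.

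Groups follow the titles. On log2(value + 1), limma 3.58.1 with a trend (R 4.3.3) was fitted to the 16431 genes with a mean of at least 1, OPNKO minus WT, no covariate, Benjamini-Hochberg adjusted over all of them and called under 0.05; fold changes understate low genes. Exon lengths, positions and overlaps came from GENCODE M21 (GRCm38) by Ensembl identifier (16542 matched, 213 did not). A length counted every base in any annotated exon of the gene, so levels and shares per kilobase depend on that choice. Alternatives were other scalings, filters, pseudocounts, tests (edgeR 4.0.16 with 694 genes called, DESeq2 1.42.0), thresholds and each library left out. Fits were tested on simulated data with 200 genes changed and the same spread setting for every gene. That test does not cover the spread between these libraries. Members and lists were chosen with earlier results of these data known. All members were named, and from each other list up to 4 that passed, or else up to 2 with the smallest p. Also named, after their values were seen, were the genes near Stbd1 and the markers.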

Additional observations from a re-analysis of the deposited data

How the results depend on the processing

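Of the recomputed fold changes of the 45 genes, 627 kept direction and side of the threshold, 18 no longer passed, 16 newly passed and 13 changed sign, these all with 1 library left out. Leaving out 1 library each gave -0.069 to 0.066 for Hk2, -0.11 to 0.0024 for Aldoa, -0.14 to 0.19 for Aldoc, -0.26 to 0.48 for Eno2, -0.0505 to 0.0395 for Pdk1, -0.18 to 0.32 for Egln3, -0.32 to 0.059 for Pgls, -0.17 to 0.024 for Gbe1 and -0.0066 to 0.12 for Ugp2. With the 4 libraries left out in turn, 4 to 545 genes passed (0 to 213 higher, 4 to 332 lower), and of the 45, 0 to 3 passed, 0 to 1 higher and 0 to 3 lower. With TMM scaling 5 of the 45 were lower, given without the share of all genes. Without any filter 1 gene passed in all (0 higher, 1 lower) and 0 of the 45 (0 higher, 0 lower); taking out only rows of 0 reads in all libraries, a setting chosen after seeing the data, gave 656 genes and 4 of the 45, so those rows set the loss. Without a trend 0 genes passed (0 higher, 0 lower), 0 of the 45 (0 higher, 0 lower) and Spp1 at -7.18 did not (adjusted p = 0.0542); the cause was not tested. DESeq2 on recovered reads called 1136 genes (620 higher, 516 lower) and 11 of the 45 (10 lower). Adjusted p under 0.1 gave 9 of the 45 (8 lower). All genes were not counted at that looser threshold, so this number has no share to be set against. With the replicate number as a block, 1566 genes passed (875 higher, 691 lower) and 9 of the 45 (8 lower); same-numbered libraries shared only a number, with a correlation of -0.02 between their deviations, so this fit is given here only. Low depth limits Egln3 and Stbd1.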
